A study of Rattus norvegicus with 2 samples.

Results

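The microRNA (miRNA) families miR-26 and miR-101, represented by rno-miR-26a, rno-miR-26b, rno-miR-101a and rno-miR-101b (rno for the rat), were followed in injured and uninjured rat carotid artery. They were chosen by name, because both families are known to repress Ezh2, and they are 4 of the 350 rat miRNA features on the array; names ending in an asterisk, the passenger strands, were left out. One array held RNA from a carotid artery without injury and the other RNA from a carotid artery 10 days after balloon injury, in which a balloon catheter drawn through the vessel removes its endothelial lining and provokes growth of a neointima. Both came from male Sprague-Dawley rats weighing about 250 g, and the labels do not say how many rats stand behind each RNA sample. With 1 array per group there is no replicate error and no test, so every difference below describes these 2 arrays.

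A miRNA guides the silencing complex to messenger RNAs that pair with its seed, the bases near its 5′ end, and lowers the protein made from them. Ezh2 is the enzyme of the Polycomb repressive complex that methylates histone H3 to keep genes silent, and it is best known for its high level in dividing cells. miR-101 and miR-26a are its classic miRNA repressors. miR-26a is also known from cultured smooth muscle cells, where it holds back differentiation and acts on Smad signalling. Ezh2 messenger RNA and protein are outside what a miRNA array measures, so nothing here gives the level of the target.

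The mature sequences show why the members form 2 families and how little separates them within each. They are given 5′ to 3′ from RefSeq on the GRCr8 rat assembly, with the seed (bases 2 to 8) in capitals; all 4 names matched, taking the unstarred name as the 5p arm of miR-26 and the 3p arm of miR-101. miR-144, a red-cell miRNA, is added because its seed comes closest to that of miR-101.
miR-26a: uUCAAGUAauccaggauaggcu
miR-26b: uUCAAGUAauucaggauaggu
miR-101a: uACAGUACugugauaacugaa
miR-101b: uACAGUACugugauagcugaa
miR-144: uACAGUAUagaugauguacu

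miR-26a and miR-26b share the seed UCAAGUA, whose complement UACUUGA is the site it pairs with in a target. Among 693 mature rat miRNA names in the RefSeq table, these 2 alone carry that seed. Counted from the 5′ end, they are identical at 19 of 21 compared positions and differ by C11U and C21U, and miR-26a is 22 bases long against 21. miR-101a and miR-101b share the seed ACAGUAC, with the complement GUACUGU, and again no other name in that table has it. They are identical at 20 of 21 positions and differ only by A16G. Over bases 2 to 7 the miR-101 seed is also that of miR-144, which departs from miR-101a within the seed by C8U. Probe sequences were not at hand, so the probes of one family cannot be assumed to separate its members.

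The 4 miRNAs come from 4 separate loci. The mature miR-26a lies at chr8:127633063-127633084 on the plus strand, within the bounds of Ctdspl, and miR-26b at chr9:83425723-83425743 on the plus strand, within the bounds of Ctdsp1. Both hosts encode small phosphatases that act on the tail of RNA polymerase II. miR-101b lies at chr1:236273982-236274002 on the plus strand, within the bounds of Rcl1, a ribosomal RNA processing factor. miR-101a lies at chr5:121081691-121081711 on the minus strand, within the bounds of a long non-coding RNA model, LOC120102934. Whether each position is exonic or intronic is not given in the table used. The hairpins of the miR-101 pair, 75 and 97 bases long, are shown with the mature strand in capitals. This pair was picked because its ratios lay further apart than those of the miR-26 pair under the scaling used here. Under quantile normalization they did not.
miR-101a hairpin: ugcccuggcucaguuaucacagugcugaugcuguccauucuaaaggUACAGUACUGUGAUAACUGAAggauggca
miR-101b hairpin: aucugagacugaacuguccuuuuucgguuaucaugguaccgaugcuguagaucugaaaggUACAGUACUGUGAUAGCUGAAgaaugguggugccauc

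All 4 miRNAs were measured in both arteries, and under the scaling used here none differed by 1.5-fold or more between them. Of the 158 miRNAs measured on both arrays, 25.3% were higher in the injured artery by at least 1.5-fold and 10.1% lower. With 4 members, a count of 0 cannot be set apart from these shares. Under other scalings up to 2 of the 4 were lower by 1.5-fold or more. Signals are the intensities as deposited, on a linear scale. Because brightness also depends on the probe, each ratio sets a miRNA only against itself across the arrays. Shares of the summed signal and sums over lists add different probes, so bright probes weigh most in them. For the ratios, log2 intensities were set relative to the 75th percentile, on the same array, of those 158 miRNAs, and every log2 ratio is injured minus uninjured. A detection flag of 1 was taken to mean measured. The highest signal of an undetected miRNA was 8.85 without injury and 5.98 after it. The signal of miR-101b was 8.36 times and 14.7 times these values, the smallest such multiples of the 4, and that of miR-26a 369 times and 485 times, so none of the 4 ratios is a bound.

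**Figure D1:**
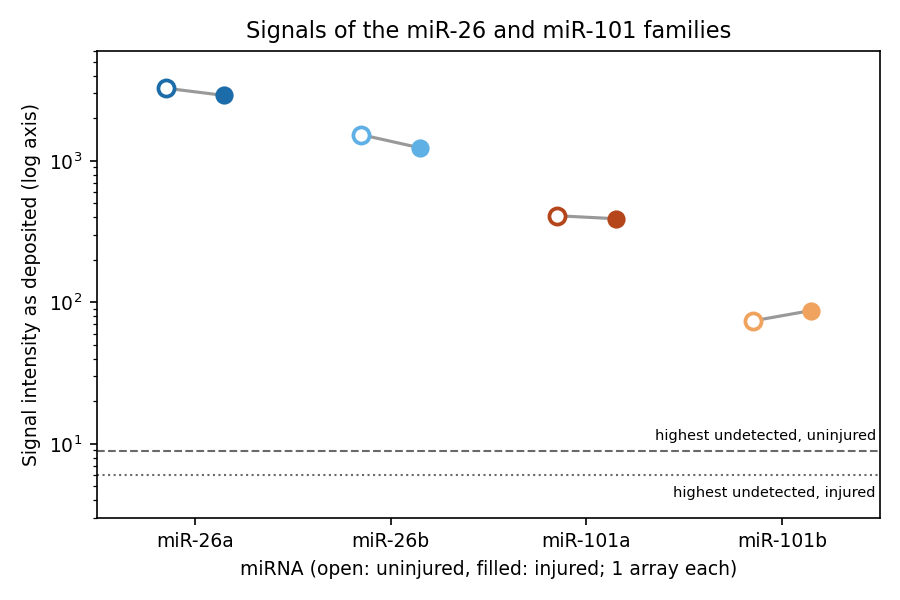
Signal intensity (log axis) of miR-26a, miR-26b, miR-101a and miR-101b on the uninjured (open) and injured (filled) array, 1 array each, with the highest undetected signal of each array as horizontal lines. The lines joining the points are nearly flat for miR-26a and miR-101a, slope down slightly for miR-26b and up slightly for miR-101b, and all points lie above both horizontal lines.

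miR-26a had a signal of 3265 in the uninjured artery and 2900 in the injured one. It held 3.42% of the summed miRNA signal in the uninjured artery and 2.98% in the injured one. After scaling its log2 ratio was -0.08, a level 1.06-fold lower in the injured artery. The miRNAs with the nearest ratios over the 2 arrays were miR-30b-3p (log2 ratio of -0.07), the hypoxia-responsive miR-210 (-0.06) and miR-365 (-0.06). Of these, miR-30b-3p was faint, with signals of 5.14 and 4.62, below the highest undetected signal of each array.

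miR-26b had a signal of 1531 in the uninjured artery and 1236 in the injured one, or 1.60% and 1.27% of the summed signal. Its log2 ratio was -0.22, a level 1.17-fold lower, which was the lowest ratio of the 4. Its nearest neighbours by ratio were the endothelial passenger strand miR-126* (-0.22), miR-30c (-0.24) and the smooth muscle miR-143 (-0.19). Of the 22 miRNAs with signals over 1000 on both arrays, miR-26b had the lowest ratio and miR-26a stood at rank 5 from the lowest. Because the cut applies to both arrays, a bright miRNA that falls can drop out of this set. miR-494, with signals of 1111 and 461 and a log2 ratio of -1.18, was left out in this way. Ratios in that bright set ran from -0.22 to 2.29, with quartiles of -0.03 and 0.34, and 21 of the 22 lay within 1.5-fold.

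miR-101a had a signal of 409 in the uninjured artery and 390 in the injured one, or 0.429% and 0.400% of the summed signal. Its log2 ratio was 0.02, the nearest to 0 of the 4, and 2 of the 158 miRNAs had a ratio nearer to 0. Its neighbours by ratio were miR-434 (0.03), let-7c (0.01) and the passenger strand miR-99a* (0.03). Among the 38 miRNAs with both signals between 100 and 1000, whose quartiles were -0.15 and 0.39, it stood at rank 14 from the lowest.

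miR-101b had a signal of 73.9 in the uninjured artery and 87.5 in the injured one, or 0.0774% and 0.0898% of the summed signal. It was the only one of the 4 with the brighter signal on the injured array as deposited. Its log2 ratio was 0.33, a level 1.26-fold higher. The nearest ratios were those of miR-22 (0.33), miR-27a (0.35) and miR-320 (0.31). In the 67 miRNAs with both signals between 10 and 100, whose quartiles were -0.13 and 0.60, it stood at rank 40 from the lowest, inside the quartiles.

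No member passed 2-fold in either direction. None was at least 2-fold higher, against 20 of the 158 measured miRNAs (12.7%), and none at least 2-fold lower, against 6 (3.8%). At 1.5-fold the count was still 0 in both directions, against 40 (25.3%) higher and 16 (10.1%) lower. With 4 members, a count of 0 cannot be set apart from these shares. The median log2 ratio of the 4 was -0.03, while that of the 158 was 0.14 with quartiles of -0.14 and 0.58. Counted from the lowest ratio, miR-26b stood at rank 33 of 158, miR-26a at 46, miR-101a at 57 and miR-101b at 99. Thus 3 lay below the median of all measured miRNAs and 1 above it, and miR-26b alone lay outside the quartiles of the 158. Within the 22 bright miRNAs above, both miR-26a and miR-26b lay below the lower quartile of -0.03.

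**Figure D2:**
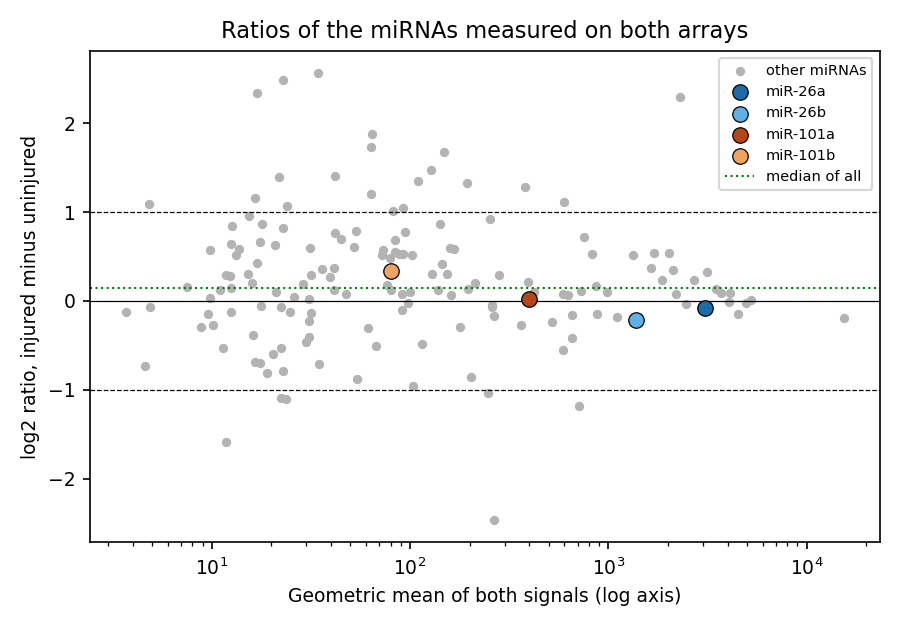
Log2 ratio (injured minus uninjured, scaled) of each of the 158 miRNAs measured on both arrays against the geometric mean of its signals (log axis), with the 4 members in colour, dashed lines at 2-fold and a dotted line at the median of 0.14. The 4 members lie between -0.22 and 0.33, within the dashed lines, with miR-26b the lowest of the 22 miRNAs with signals over 1000 on both arrays.

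Within each family the ratios differed by less than 1.5-fold. The log2 ratio of miR-26b minus that of miR-26a was -0.14, a 1.10-fold difference, and that of miR-101b minus miR-101a was 0.31, a 1.24-fold difference. A factor that multiplies a whole array cancels in these differences. They have no error of their own, and under quantile normalization the miR-101 difference was -0.08, so its direction was not held there.

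The size of the ratios, and for the miR-101 pair also their sign, depended on how the arrays were scaled. miR-26a and miR-26b were lower in the injured artery under each of the 6 scalings tried, from -0.67 to -0.08 and from -0.81 to -0.22. miR-101a ran from -0.57 to 0.02 and miR-101b from -0.26 to 0.33, each below 0 under 4 of the 6. The most negative values came with the 6 control features that were detected on both arrays aligned. Without scaling those features were brighter on the injured array by a median log2 ratio of 0.50, against 0.05 for the 158 miRNAs. All 4 members were below 0 under 3 scalings, and under each of these at least 1 was lower by 1.5-fold or more. With the control features aligned there were 2, both of the miR-26 family, as were 55 of the 158 miRNAs (34.8%). With the 75th percentile taken over all 350 miRNAs it was miR-26b alone, at -0.72 (45 of the 158, or 28.5%), and likewise with the medians aligned, at -0.66 (40 of the 158, or 25.3%). None was at least 1.5-fold higher with the control features aligned, against 8.86% of the 158. No scaling brought any of the 4 to 2-fold in either direction; with the control features aligned, the background at 2-fold was 4.43% higher and 14.6% lower. Which scaling matches the amount of miRNA in the tissue was not tested.

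**Figure D3:**
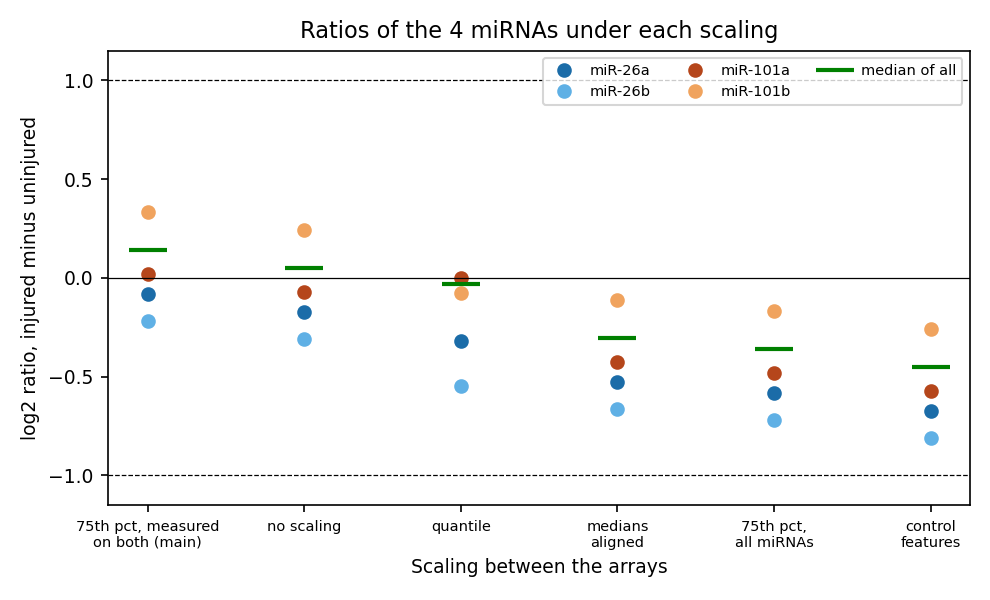
Log2 ratio (injured minus uninjured) of the 4 members under each of 6 scalings of the arrays, with the median of the 158 miRNAs as a green bar and dashed lines at 2-fold. miR-26b is the lowest point throughout, from -0.22 to -0.81, miR-101b is the highest except under quantile normalization, where miR-101a at 0 lies above it, and none reaches 2-fold.

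Other miRNAs known to repress Ezh2 did not share one pattern. Of the 13 listed, 9 were measured on both arrays, 3 on the uninjured array only and 1, miR-217, on neither. The 9 had a median log2 ratio of 0.10, against 0.14 for all 158, with 1 at least 2-fold higher and none at least 2-fold lower. The one was miR-214, a repressor of Ezh2 in skeletal muscle precursors, with signals of 419 and 854 and a level 2.17-fold higher in the injured artery; its log2 ratio fell short of 2-fold under 4 of the 5 other scalings, at 0.52 to 0.96. let-7 family members (let-7a, let-7b, let-7c, let-7d, let-7e, let-7f, let-7i and miR-98), 8 in all, lay between -0.03 and 0.23; with the control features aligned they ran from -0.62 to -0.36.

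The 3 measured only in the uninjured artery are miRNAs of neurons. miR-137 had signals of 55.5 and 1, so that its level was at least 8.74-fold lower in the injured artery, against the highest undetected signal. Against the lowest detected signal the figure was 38.3-fold, which is no firm bound. Undetected signals on the injured array ran up to 5.98, above the lowest detected one of 1.36. miR-138 had signals of 26.6 and 3.15 (at least 4.19-fold lower, with a larger figure of 7.96) and miR-124 of 16.2 and 1 (at least 2.56-fold lower, with 11.2). The nerve list, which shares these 3, had 8 members on the array, of which 5 were measured on the uninjured array only and 1 on the injured array only. Over the whole array, 158 of the 166 miRNAs measured without injury were also measured after it. Of the 5, miR-9 was faint, with signals of 7.43 and 2.69. Its uninjured signal lay below the highest undetected one of that array, 8.85, and its bound was only 1.17-fold. The summed signal of the nerve list was 441 in the uninjured and 228 in the injured artery. Most of each sum came from miR-338, with signals of 283 and 147 and a ratio of -0.85 in log2 units. Not every member of the list was lower. miR-219-5p, the one measured on the injured array only, had signals of 6.41 and 30.9, at least 3.71-fold higher. miR-128 stood at 0.36, though at -0.23 when the controls set the scale. The part of nerve tissue in these differences was not tested.

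miR-144, which shares bases 2 to 7 of its seed with miR-101, had signals of 35.7 and 15.6. Its log2 ratio of -1.11, a level 2.16-fold lower, lay far from the 0.02 and 0.33 of the miR-101 pair. It is made with miR-451 in red cells. miR-451 had signals of 641 and 109, and the summed signal of these 2 erythroid miRNAs was 677 in the uninjured and 125 in the injured artery. The part of blood in the miR-144 value was not tested.

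The miR-26 and miR-101 ratios lay below those of miRNAs linked to smooth muscle growth and mostly above those of the contractile list. Members and lists were chosen with earlier results of these data known, so this contrast is a description and no test. The 6 growth-associated miRNAs (miR-21, miR-221, miR-222, miR-146a, miR-146b and miR-31) had a median log2 ratio of 1.38 and 5 were at least 2-fold higher. When the control features were aligned their median was 0.79 and 2 were at least 2-fold higher, while the median of the miR-26 and miR-101 members was -0.62. miR-21, which favours smooth muscle growth, had signals of 1065 and 4915. The 5 contractile miRNAs (miR-143, miR-145, miR-1, miR-133a and miR-133b) had a median of -1.03. Of these, 3 were at least 2-fold lower, namely miR-1, miR-133a and miR-133b. When the control features were aligned the median was -1.62 and 4 were, with miR-145 added. miR-1 was faint in the injured artery, at 6.64 against a highest undetected signal of 5.98. miR-26b, at -0.22, was close to miR-143 of that list at -0.19, whereas miR-145 was at -0.55. All 4 members were lower than each growth-associated miRNA by ratio, the nearest of which was miR-146a at 0.77. miR-26a, miR-101a and miR-101b were higher by ratio than each contractile miRNA, and miR-26b was higher than each except miR-143. Under quantile normalization miR-143 was at 0, level with miR-101a and above the other 3 members.

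**Figure D4:**
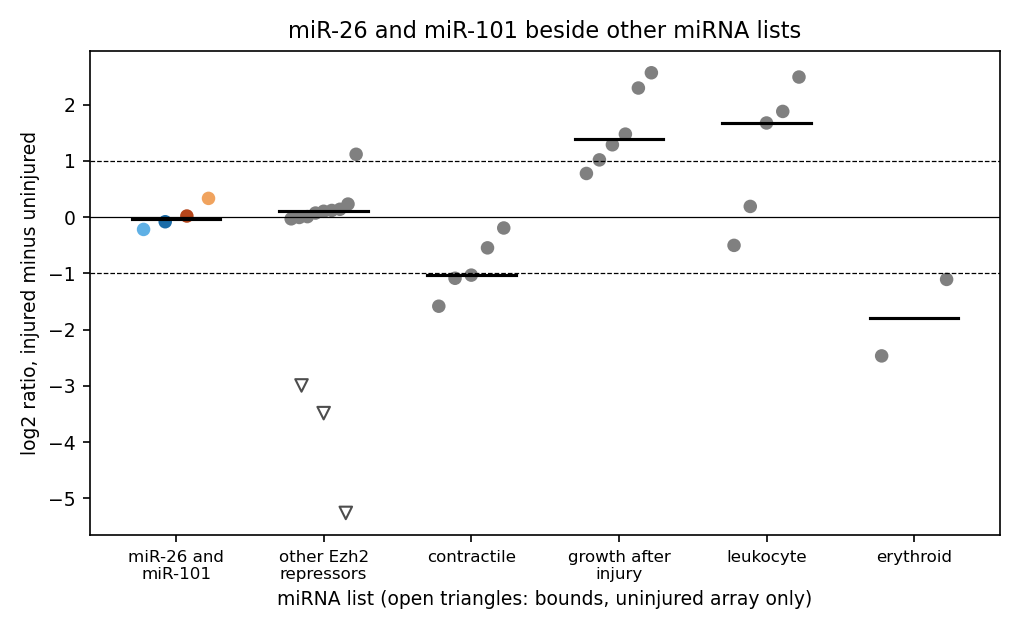
Log2 ratio (injured minus uninjured, scaled) of the miR-26 and miR-101 members (coloured) and of 5 other miRNA lists (grey), each dot 1 miRNA measured on both arrays, black bars the list medians, open triangles bounds for miRNAs measured on the uninjured array only, and dashed lines 2-fold. The members cluster around their median of -0.03, the growth and leukocyte lists lie mostly above 1, and the contractile and erythroid lists lie below 0. The triangles are set against the lowest detected signal of the injured array, or the miRNA's own if larger, so they are no firm bounds.

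miRNAs that mark other cell types differed between the same arrays. The artery's own smooth muscle miRNAs miR-143 and miR-145 were present on both, with a summed signal of 17749 and 14466. All 5 leukocyte miRNAs (miR-142-3p, miR-142-5p, miR-223, miR-150 and miR-342-3p) were measured on both arrays, with a summed signal of 241 in the uninjured and 515 in the injured artery and a median log2 ratio of 1.67. They went both ways: miR-142-5p was at 2.49, while miR-342-3p was at 0.19 (-0.40 by the control features) and miR-150 at -0.50 (-1.09). For the endothelial lining, miR-126 stood at a log2 ratio of 0.08 (-0.51 by the control features) and its passenger strand miR-126* at -0.22 (-0.81). Of the 3 listed striated muscle miRNAs, miR-206 and miR-208 were measured on neither array and miR-499 on both, at -0.29 (-0.89 by the control features). The miR-499 signals of 10.1 and 7.73 were close to the highest undetected ones of 8.85 and 5.98. That list leaves out miR-1, miR-133a and miR-133b, which were counted as contractile above and stood at -1.58, -1.09 and -1.03. In whole tissue, fewer cells of a type and less of a miRNA per cell cannot be told apart, and the part of these cell types in the miR-26 and miR-101 values was not tested.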

How the data were processed

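Trizol-extracted total RNA was Cy3-labelled with Agilent's miRNA kit, per the labels' protocols. Each deposited array table pairs a signal intensity with a flag for 350 rat miRNAs and 22 control features; scanner software, background subtraction and prior normalization: not given in the sources used here. The flag is undefined in the files and was read as detection; 166 miRNAs were measured without injury and 184 after it. A value of exactly 1 was given to 109 miRNAs per array, not always the same ones. The value table deposited by the authors holds a linear ratio, equal to injured over uninjured intensity for 349 of 349 shared names, within a relative tolerance of 1e-05.

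Log2 intensities were aligned at the 75th percentile of the 158 miRNAs measured on both arrays (signals of 401 and 377), with 5 other scalings as alternatives, in Python 3.11.15 with numpy 2.4.6 and pandas 2.3.3. The scaling was tested on simulated data, in which the uninjured array was multiplied by a constant factor and as many rises as falls were planted. In the arrays here controls and miRNAs shifted unequally, so that test checks the calculation and cannot show which scaling is right. For a miRNA measured on 1 array, the larger fold divides the bright value by the lowest detected signal on the other array. The miRNA's own signal there was used instead if that was larger. The firmer bound divides by the highest undetected signal on the other array. The threshold was 2-fold. The named miRNAs are the 4 members, for each the 3 with the nearest log2 ratio, and the members of the lists; members and lists were chosen with earlier results of these data known. The number of arrays limits the precision.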

Additional observations from a re-analysis of the deposited data

How the results depend on the processing

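The count of members at least 2-fold apart was 0 in both directions under every scaling, and 0 at 1.5-fold under the scaling used. The deposited value table, which repeats the unscaled ratios, also gave 0. Ignoring flags could not alter the count, since all 4 members were measured on both arrays. At 1.5-fold combined with other scalings, alternatives chosen after seeing the data, it became 2 lower with control features aligned, 1 lower with medians aligned and 1 lower with the 75th percentile over all miRNAs, and stayed 0 without scaling and with quantile normalization; the count higher stayed 0 in each. Without scaling, as in the deposited value table, the log2 ratios were -0.17 (miR-26a), -0.31 (miR-26b), -0.070 (miR-101a) and 0.24 (miR-101b). In the same order, aligning the 75th percentile of all 350 miRNAs gave -0.58, -0.72, -0.48 and -0.17. They were -0.53, -0.66, -0.43 and -0.11 with medians aligned, -0.32, -0.55, 0 and -0.078 with quantile normalization, and -0.67, -0.81, -0.57 and -0.26 with control features aligned. The difference of miR-26b minus miR-26a was -0.23 and that of miR-101b minus miR-101a -0.078 under quantile normalization, and neither moved under the others, which shift whole arrays. In the order named, these 5 scalings shifted the 158 ratios by medians of -0.09, -0.50, -0.44, -0.30 and -0.59, so changes are best read against the other miRNAs. Bounds against the highest undetected signal did not apply, since all 4 members were measured on both arrays. No paired analysis was possible because each group held 1 array, and for the same reason no array could be left out.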

Other observations

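The array also carries the passenger strands miR-101a* and miR-26b*, which took no part in the comparison. Both were undetected on both arrays, with miR-101a* listed at 1 on each and miR-26b* at 0.534 without injury and 1 after it. In the authors' deposited table the ratio of miR-26b* appears as 1.87, which sets 2 undetected values against each other and is no measurement.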
